A study of Mus musculus with 18 samples.

Results

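The genes described here are 10 of the 36757 genes in the deposited count table, chosen by symbol. They are 5 genes of endothelial identity, Pecam1, Cdh5, Kdr, Vwf and Plvap, and 5 genes of leukocyte adhesion to vessels, Icam1, Vcam1, Sele, Selp and Madcam1. Each symbol occurred once in the table and each gene was counted in all 18 libraries. The libraries came from colorectal tissue of a chronic colitis model, from colorectal tissue of a colitis-associated colorectal cancer (CAC) model, and from organoids grown from CAC tumors, with 3 libraries of each genotype in each model. The genotypes are labelled wild type (RNF138 fl/fl in the protocols, that is, with the floxed alleles and no deletion) and RNF138-/-, both on C57BL/6. RNF138 is a ubiquitin ligase of the RING finger family, and the study asked what its loss does to NF-kappaB signaling in the colon. Colitis mice of 6 to 8 weeks drank 2% dextran sulfate sodium (DSS), a polymer that injures the colonic epithelium, for 7 days and then water for 14 days, in repeated cycles, and were killed 4 weeks after the last cycle. CAC mice of the same age received the carcinogen azoxymethane (AOM) at 10 mg/kg before their DSS cycles. The organoids were cultured in matrigel from tumor-bearing fragments of the CAC colon after enzymatic digestion. The Cre driver of the deletion, and whether a library held RNA of 1 mouse or of several, are not given in the sources used here, so p-values measure only the spread between these libraries.

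Endothelial cells line the blood vessels. PECAM1 and the cadherin encoded by Cdh5 hold them together, KDR is their main receptor for VEGF, VWF is stored in their Weibel-Palade bodies and binds platelets, and PLVAP forms the diaphragms of fenestrae and caveolae in capillaries such as those of the gut. Leukocytes leave the blood in steps: the selectins SELE and SELP let them roll, ICAM1 and VCAM1 arrest them through integrins, and MADCAM1 recruits lymphocytes that carry an integrin with the chain encoded by Itgb7 to the intestine. Inflammatory cytokines acting through NF-kappaB are known inducers of Icam1, Vcam1, Sele and, in the mouse, Selp, and several of these genes can also be expressed outside endothelium, Icam1 by epithelium and leukocytes, Vcam1 by stromal cells, and Selp, Pecam1 and Vwf by platelets or their precursors.

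Total counts were between 11514716 and 24390082 per library, with a median of 17332367. The transcript of the targeted gene was not lower beyond its spread in the libraries labelled RNF138-/-. Rnf138 stood at 19.9 ± 4.98 CPM (counts scaled to the normalized library size; SD, n = 3) in fl/fl and 18.8 ± 0.674 in RNF138-/- libraries of colitis, at 25.6 ± 4.00 and 43.4 ± 3.29 in CAC, and at 48.4 ± 9.57 and 46.7 ± 3.72 in organoids, so every direction below is between libraries as labelled. The 3 fl/fl organoid libraries had 0 counts of the Y-linked genes Ddx3y, Eif2s3y, Kdm5d and Uty, and the 3 RNF138-/- organoid libraries expressed them, so sex and genotype cannot be told apart in organoids. All 12 tissue libraries had counts of Y-linked genes. The labelled tissue was also checked against markers of other cell types, and several of the marker lists moved with genotype in CAC, smooth muscle by the most called genes. The summed level of 6 smooth muscle genes was 2547 to 8194 CPM in CAC fl/fl libraries and 113 to 240.0 CPM in CAC RNF138-/- libraries, against 4886 to 14560 CPM in the 6 colitis libraries.

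The promoters of the members are shown first because NF-kappaB is the pathway the study asked about. RefSeq sequences of GRCm38.p6, from 250 bases before to 50 bases after the start of the gene, were held for 5 of the 10 members, Kdr, Icam1, Sele, Selp and Madcam1, and all 5 are printed since each was called or had groups that did not overlap in at least 1 comparison below. Capitals mark matches of the NF-kappaB consensus (the named 10-base motif that starts with GGG and ends with CC), searched on both strands. The windows are chr5:75978406-75978705 (minus strand) for Kdr, chr9:21015690-21015989 (plus) for Icam1, chr1:164047984-164048283 (plus) for Sele, chr1:164115014-164115313 (plus) for Selp and chr10:79664309-79664608 (plus) for Madcam1.
Kdr: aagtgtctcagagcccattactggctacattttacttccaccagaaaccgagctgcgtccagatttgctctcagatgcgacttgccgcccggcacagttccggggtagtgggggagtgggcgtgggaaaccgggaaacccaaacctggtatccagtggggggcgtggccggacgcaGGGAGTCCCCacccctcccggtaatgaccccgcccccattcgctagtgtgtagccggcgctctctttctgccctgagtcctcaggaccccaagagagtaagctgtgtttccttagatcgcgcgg
Icam1: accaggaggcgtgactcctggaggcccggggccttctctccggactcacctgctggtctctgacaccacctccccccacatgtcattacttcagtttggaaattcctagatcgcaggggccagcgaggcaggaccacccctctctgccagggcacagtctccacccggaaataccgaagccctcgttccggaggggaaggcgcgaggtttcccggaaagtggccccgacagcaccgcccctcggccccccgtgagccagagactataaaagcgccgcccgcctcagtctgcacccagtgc
Sele: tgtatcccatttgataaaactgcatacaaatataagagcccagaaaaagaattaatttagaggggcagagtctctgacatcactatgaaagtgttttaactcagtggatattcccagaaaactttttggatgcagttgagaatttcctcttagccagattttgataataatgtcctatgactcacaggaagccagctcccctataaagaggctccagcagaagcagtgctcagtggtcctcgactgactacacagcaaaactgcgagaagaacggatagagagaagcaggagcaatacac
Selp: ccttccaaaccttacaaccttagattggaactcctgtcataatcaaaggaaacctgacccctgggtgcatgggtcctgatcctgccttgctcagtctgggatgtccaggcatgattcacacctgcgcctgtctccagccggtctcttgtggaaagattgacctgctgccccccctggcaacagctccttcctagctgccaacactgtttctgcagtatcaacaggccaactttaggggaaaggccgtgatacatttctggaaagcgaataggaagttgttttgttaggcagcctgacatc
Madcam1: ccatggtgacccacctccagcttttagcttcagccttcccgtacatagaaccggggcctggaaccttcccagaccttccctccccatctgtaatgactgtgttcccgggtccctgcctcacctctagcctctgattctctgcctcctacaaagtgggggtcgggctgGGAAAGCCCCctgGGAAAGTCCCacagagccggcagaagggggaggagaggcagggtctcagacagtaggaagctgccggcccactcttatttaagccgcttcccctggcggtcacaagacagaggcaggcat

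The Madcam1 window held 2 matches of the consensus, starting at -83 and -70 from the gene's start, both on the minus strand. The Kdr window held 1, at -74, which reads as a match on both strands. The windows of Icam1, Sele and Selp held 0, which says only that these letters were not in these windows, and 8.46% of all 32851 promoters in the RefSeq table held a match. GGAA, the core of ETS-factor sites, occurs in nearly every promoter (96% of them), with 5 matches over both strands in Kdr, 7 in Icam1, 3 in Sele, 8 in Selp and 9 in Madcam1. In the mm10 annotation (GENCODE M21), Icam1 (ENSMUSG00000037405.8) lies on chromosome 9 from 21015985 to 21028817 and Selp (ENSMUSG00000026580.16) on chromosome 1 from 164115264 to 164150026, downstream of Sele (ENSMUSG00000026582.6, 164048234 to 164057677) on the same strand. Genes on the opposite strand overlap 11.7% of the exon bases of Icam1 and 14.1% of those of Selp, and, since the counting is not stated to use strand, reads there cannot be told apart. Sele, Cdh5, Kdr, Plvap and Madcam1 shared no exon base with another gene. The share of 50-base windows found in another gene was at most 2.27% (Icam1) for the 10 members.

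Levels were first set side by side across models, per length, as TPM (counts per exon length, scaled to the library). In tissue the capillary gene Plvap stood highest of the 10 members, and in organoids Icam1 did. Plvap had a mean of 157.6 TPM over the 6 colitis libraries (78.5 to 208.5) and of 80.1 TPM over the 6 CAC libraries. The next gene by these means over both genotypes, Pecam1, had 25.0 and 23.6 TPM. Over the 6 colitis libraries Cdh5 (13.4 TPM), Icam1 (9.42), Madcam1 (8.48), Kdr (8.09), Vcam1 (6.96) and Vwf (5.56) followed in an order in which the ranges of neighbours overlapped, and Selp (0.671) and Sele (0.221) came last. In CAC, over both genotypes together, Icam1 came after Plvap and Pecam1 at 21.8 TPM, ahead of Cdh5 at 18.4 TPM, with overlapping ranges. Neither genotype alone had this order. In RNF138-/- libraries Icam1 had a mean of 34.4 TPM, above Pecam1 (24.2). In fl/fl libraries it had 9.28 TPM, below Cdh5 (12.9). In organoids the order was another one: Icam1 (111.7 TPM) and Vcam1 (48.9 TPM) led, Sele followed at 4.68 TPM, and the other 7 members lay between 0.0830 and 2.23 TPM. The plot of TPM by model shows the organoid markers of Icam1, Vcam1 and Sele to the right of the tissue markers and those of the other 7 genes to the left.

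**Figure D1:**
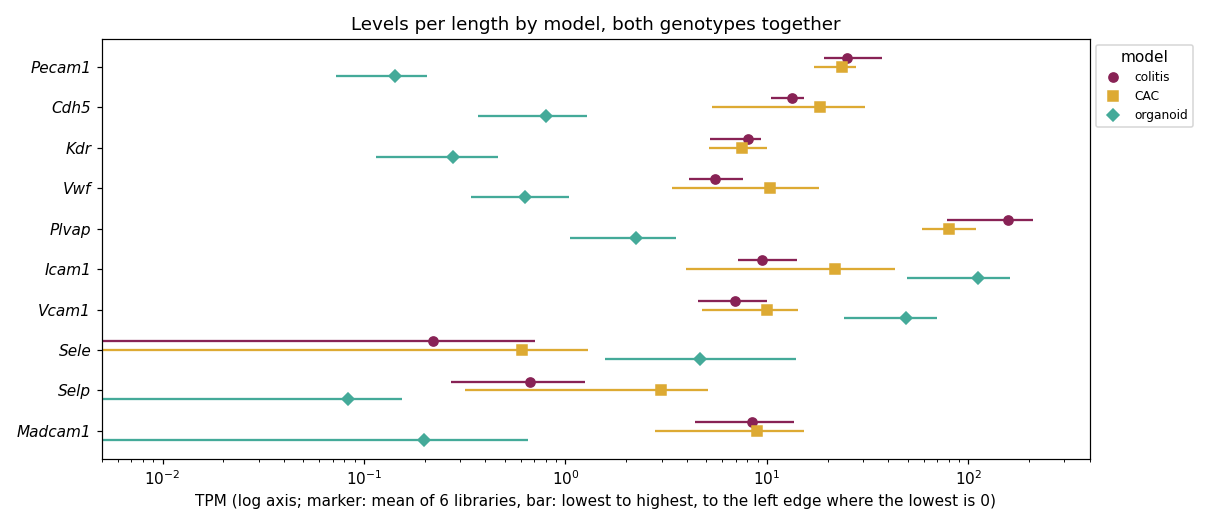
TPM of the 10 genes on a log axis, with the mean of the 6 libraries of each model (marker) and the lowest and highest library (bar). Plvap is the highest gene in colitis (157.6 TPM) and CAC (80.1 TPM), and Icam1 (111.7 TPM) in organoids, where Pecam1 is at 0.142 TPM.

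On the CPM scale, the 6 organoid libraries did not overlap the 12 tissue libraries for any of the 10 members. Icam1, Vcam1 and Sele were higher in every organoid library than in every tissue library, and the other 7 members were lower. Of 19390 genes, 11.7% were higher and 13.8% lower without overlap in the same way. Organoids and tissue were not tested against each other, because they differ in material as well as in any processing. Icam1 ranged from 74.5 to 263 CPM in organoids and from 6.85 to 46.6 CPM in tissue. Vcam1 ranged from 68.9 to 232 CPM and from 14.8 to 38.2 CPM. Sele ranged from 1.67 to 14.8 CPM (24 to 259 counts) in organoids and from 0 to 0.931 CPM in tissue. The endothelial markers proper were near the floor in the organoids: Pecam1 had 2 to 9 counts per library there (0.157 to 0.475 CPM), against 28.6 to 84.6 CPM in tissue. Madcam1 had 0 to 6 and Selp 0 to 3 counts per organoid library, and in 1 of each genotype's libraries (Madcam1) or 1 RNF138-/- library (Selp) the count was 0, which allows up to 3 counts. Cdh5 (0.549 to 1.77 CPM), Kdr (0.334 to 1.49), Vwf (1.96 to 6.13) and Plvap (0.735 to 2.43) were low but counted in every organoid library. In bulk RNA, fewer cells of a type and less RNA per cell cannot be told apart.

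Other marker lists put these organoid levels beside other cell types. The 5 endothelial identity members summed to 5.72 to 9.67 CPM in organoids and 137.3 to 300.4 CPM in tissue. A list of 20 other endothelial genes did not fall in the same way, with sums of 204.3 to 474.3 CPM in organoids and 256.7 to 439.2 CPM in tissue, since genes such as Mcam (79.7 CPM in fl/fl organoids), Ecscr (56.7 CPM) and Cd34 (35.5 CPM) are in that sum, while Tie1 (0.210 CPM), an endothelial receptor, and Emcn (0.0784 CPM), a sialomucin of endothelium, were near 0 (both named after their values were seen). Fibroblast genes (Col1a1, Col1a2, Col3a1, Dcn, Lum and Pdgfra) summed to 8935 to 49520 CPM in organoids and to 922.8 to 1740 CPM in tissue. Genes of leukocytes summed to 5.57 to 22.4 CPM in organoids and 208.3 to 399.1 CPM in tissue, and the T cell gene Cd3e had 0 counts in all 6 organoid libraries. Intestinal epithelial genes (Epcam, Cdh1, Krt8, Krt18, Krt20, Vil1 and Cdx2) summed to 4550 to 8706 CPM in organoids. Which of the cells in these cultures carried Icam1, Vcam1 and Sele was not tested.

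**Figure D2:**
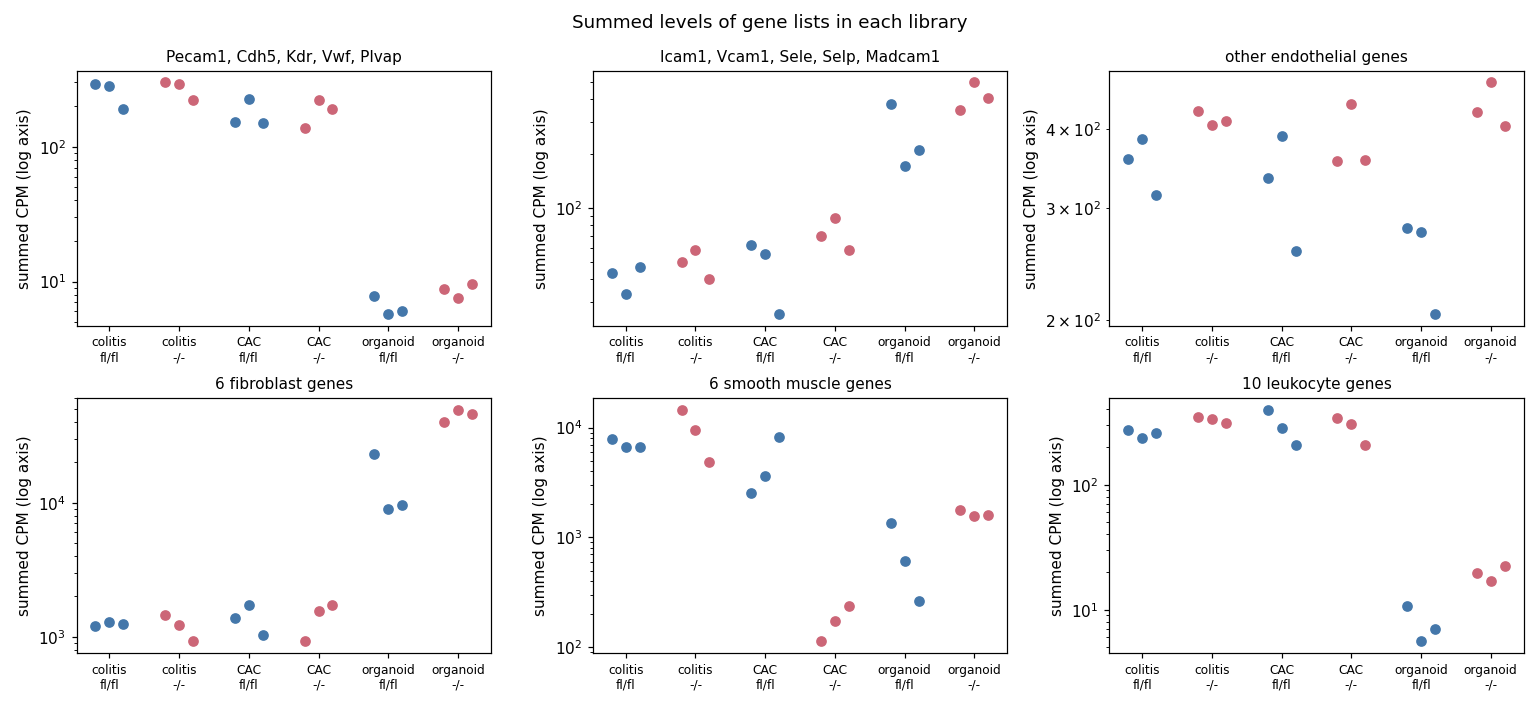
Summed CPM (log axis) of 6 gene lists in each of the 18 libraries by model and genotype, with fl/fl in blue and RNF138-/- in red. The endothelial identity genes drop to 5.72 to 9.67 CPM in organoids while the adhesion genes (171.8 to 498.1 CPM) and the fibroblast genes are higher there than in tissue, and the smooth muscle genes are lowest in CAC RNF138-/- (113 to 240.0 CPM).

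The genotypes were then compared within each model, with edgeR's quasi-likelihood test, Benjamini-Hochberg adjustment over all genes tested, and a call where the adjusted p was below 0.05 and the difference at least 2-fold. In CAC the adhesion genes Icam1, Selp and Sele stood higher in all 3 RNF138-/- libraries than in all 3 fl/fl libraries, by 2.77-fold, 3.08-fold and 2.80-fold in the fit, and the pan-endothelial gene Pecam1 stood lower in all 3. None of the 10 members was called in either direction (edgeR), although 2 had an unadjusted p under 0.05, and DESeq2 called 2, Icam1 and Selp, both higher. Over all 17752 genes tested 0.546% were called higher and 4.83% lower, and the groups did not overlap for 22.8% (higher) and 21.8% (lower), against 3 and 1 of the 10 members, so the members' share without overlap is near that of all genes. The 954 calls over all genes in CAC, and with them each call of another gene in CAC below, were not kept under every setting. With edgeR, 0 genes were called without RNF138-/- library 1, without library 2 or with a covariate of Y-linked expression. At an unadjusted p under 0.05 and 2-fold, 3044, 2475 and 1792 genes passed in these fits, and 2913 with all libraries. DESeq2 called 2463 genes.

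Icam1 had 15.1, 18.5 and 6.85 CPM in CAC fl/fl libraries 1, 2 and 3, and 35.5, 46.6 and 33.0 CPM in RNF138-/- libraries 1, 2 and 3. The lowest RNF138-/- library lay above the highest fl/fl library. The log2 fold change was 1.47 (SE 0.34, edgeR, adjusted p = 0.0529), just short of the threshold. It passed with DESeq2 (adjusted p = 0.00135) and without fl/fl library 3, the least deeply sequenced one (log2 fold change 1.19, adjusted p = 0.0275), and its alternatives spanned adjusted p-values of 0.00135 to 0.326.

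Selp, the P-selectin gene, was rare in every library. It had 23, 64 and 6 counts (1.44, 3.07 and 0.555 CPM) in CAC fl/fl and 101, 128 and 129 counts (5.37, 5.18 and 5.79 CPM) in CAC RNF138-/- libraries. The RNF138-/- libraries lay close together and above the fl/fl libraries, which were spread widely. The log2 fold change was 1.62 (SE 0.53, adjusted p = 0.0924 by edgeR and 0.0184 by DESeq2, range 0.0184 to 0.432 across alternatives), and without fl/fl library 2 it was 2.38.

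Sele, the endothelial selectin induced by cytokines, had 2, 11 and 0 counts in CAC fl/fl and 10, 23 and 16 in CAC RNF138-/- libraries. On the CPM scale the groups did not overlap (0.125, 0.528 and 0 against 0.531, 0.931 and 0.718), although the 2 nearest libraries, at 0.528 and 0.531 CPM, were level. The log2 fold change was 1.48 (SE 0.76, edgeR, adjusted p = 0.213), between 1.09 and 3.18 in the 4 of 6 fits with 1 library left out in which Sele passed the filter on low counts, the highest without fl/fl library 2. Over the pooled counts, 49 against 13, the rate ratio was 2.73 (95% interval 1.46 to 5.48 for counting error only).

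Vcam1 and Madcam1, the other adhesion members, did not stand apart in CAC. Vcam1 had 38.2, 28.9 and 16.7 CPM in fl/fl and 25.7, 31.0 and 15.9 CPM in RNF138-/- libraries (log2 fold change -0.24, SE 0.34, edgeR, adjusted p = 0.641), and Madcam1 had 7.25, 4.27 and 1.57 against 3.08, 3.64 and 2.96 CPM (-0.47, adjusted p = 0.520). The groups overlapped for both genes, and the sign of Madcam1 turned without fl/fl library 1, as the sign of Vcam1 did without that library or without RNF138-/- library 3.

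The endothelial identity genes did not move as one in CAC. Pecam1 was at 48.7, 51.5 and 46.8 CPM in fl/fl and at 28.6, 42.5 and 44.5 CPM in RNF138-/- libraries, below the fl/fl range in each, with a log2 fold change -0.39 (SE 0.19, edgeR, adjusted p = 0.189). Kdr was at 20.0, 27.7 and 23.6 against 12.6, 22.3 and 16.5 CPM (-0.51, adjusted p = 0.190) and Plvap at 38.6, 64.7 and 48.7 against 34.4, 53.4 and 42.7 CPM (-0.26, adjusted p = 0.464), with overlapping groups. Cdh5 was at 16.6, 28.6 and 8.88 against 20.0, 31.8 and 25.0 CPM (0.47, adjusted p = 0.422) and Vwf at 29.2, 54.1 and 21.4 against 41.6, 71.9 and 61.9 CPM (0.71, adjusted p = 0.208), again with overlap. Fl/fl library 3 was the lowest of the 6 for Cdh5, Vwf, Icam1, Sele, Selp and Madcam1, and not for Pecam1, Kdr, Plvap or Vcam1. These small differences depend on scaling: without TMM factors the median log2 fold change of all genes moved by 0.26 in this comparison, from 0.01 to 0.27, and Pecam1 came to -0.12, and on the TPM scale Pecam1 had means of 22.9 ± 3.59 in fl/fl and 24.2 ± 6.17 in RNF138-/- libraries (SD, n = 3).

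**Figure D3:**
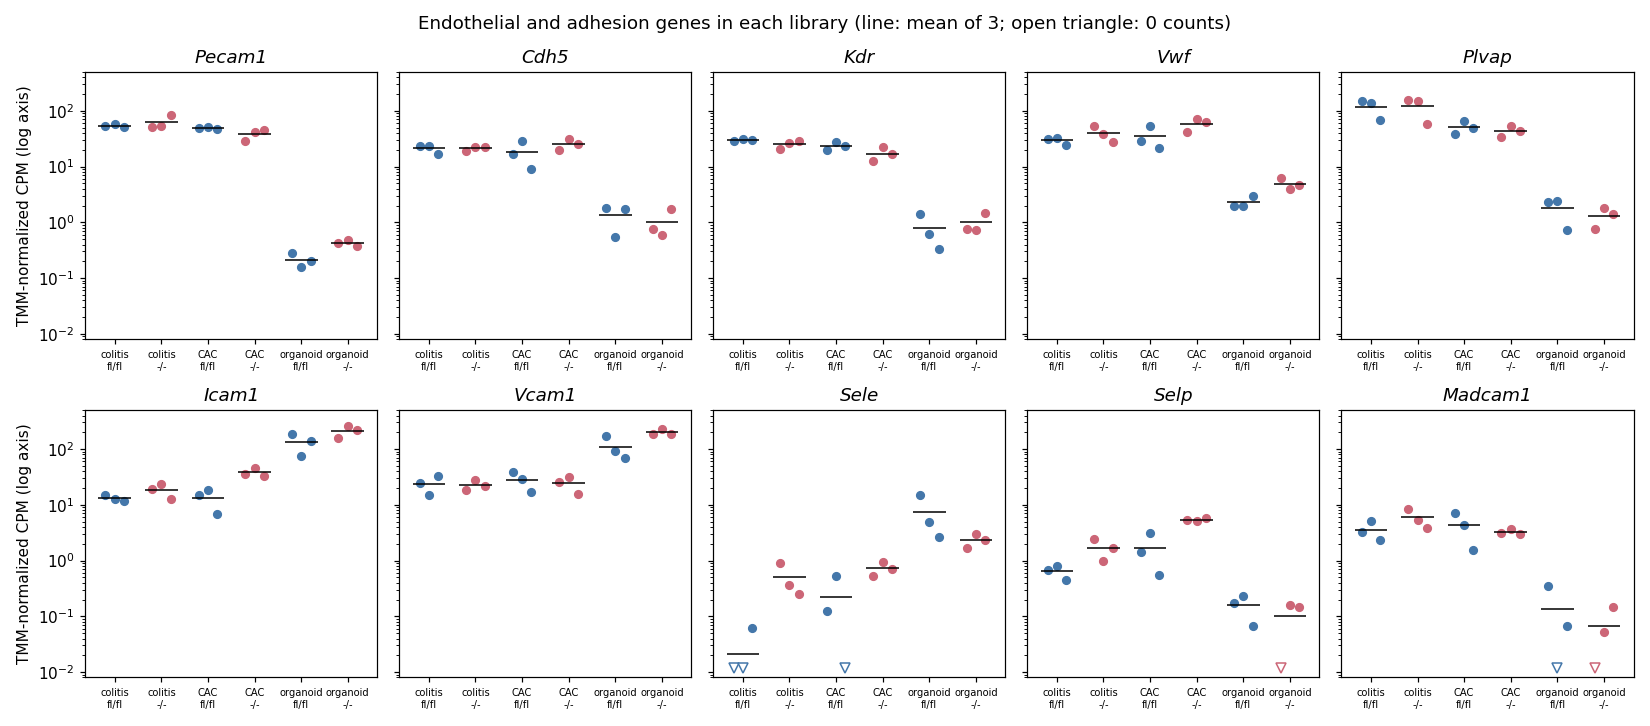
TMM-normalized CPM (log axis) of each of the 10 genes in each of the 18 libraries, in order of replicate number within a group, with fl/fl in blue, RNF138-/- in red, the group mean as a line and open triangles for libraries with 0 counts. In CAC the 3 RNF138-/- libraries lie above the 3 fl/fl libraries for Icam1 (33.0 to 46.6 against 6.85 to 18.5 CPM), Selp and Sele, and below them for Pecam1.

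Because the amount of vessel in a piece of tissue can differ, the ratio of each member's CPM to that of a pan-endothelial gene was compared. Both Icam1 and Selp were higher per unit of Pecam1 and per unit of Cdh5 in CAC RNF138-/- libraries. Icam1 had ratios to Pecam1 of 0.310, 0.359 and 0.146 in fl/fl and 1.24, 1.10 and 0.742 in RNF138-/- libraries (log2 difference of the means of the log ratios 1.98, exact permutation test, two-sided, p = 0.1, which is the smallest p that 3 against 3 allows). Its ratios to Cdh5 were 0.913, 0.646 and 0.771 against 1.77, 1.46 and 1.32 (0.97, exact p = 0.1). Selp had mean ratios to Pecam1 of 0.0337 ± 0.0242 and 0.147 ± 0.0357 (SD, n = 3, 2.39 on the log2 scale, exact p = 0.1) and to Cdh5 of 0.0856 ± 0.0225 and 0.221 ± 0.0533 (1.37, exact p = 0.1). The groups did not overlap in any of these 4 ratios. Sele also stood higher per unit of either gene, at 0.0161 to 0.0219 against 0 to 0.0103 of Pecam1 and 0.0265 to 0.0293 against 0 to 0.0185 of Cdh5, on its few counts and without a test, since 1 fl/fl library had 0 counts.

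For Vwf, Kdr and Plvap the ratio depended on which endothelial gene was the reference, and Cdh5 itself was higher per unit of Pecam1 (0.670 ± 0.0967 in RNF138-/- against 0.362 ± 0.184 in fl/fl, without overlap). Vwf was higher per unit of Pecam1 (1.51 ± 0.160 against 0.702 ± 0.311, exact p = 0.1), and per unit of Cdh5 its groups overlapped (2.27 ± 0.198 against 2.02 ± 0.341, exact p = 0.3). Kdr overlapped per unit of Pecam1 (0.445 ± 0.0773 against 0.484 ± 0.0661, exact p = 0.6) and was lower per unit of Cdh5 (0.663 ± 0.0363 against 1.61 ± 0.913, exact p = 0.1). Plvap behaved like Kdr, with overlap per unit of Pecam1 and 1.70 ± 0.0208 against 3.36 ± 1.84 per unit of Cdh5 (exact p = 0.1). The groups overlapped for Vcam1 and for Madcam1 with either reference. The plot of ratios shows that the 3 CAC RNF138-/- libraries are the highest of the 12 for Icam1 and for Selp with either reference.

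**Figure D4:**
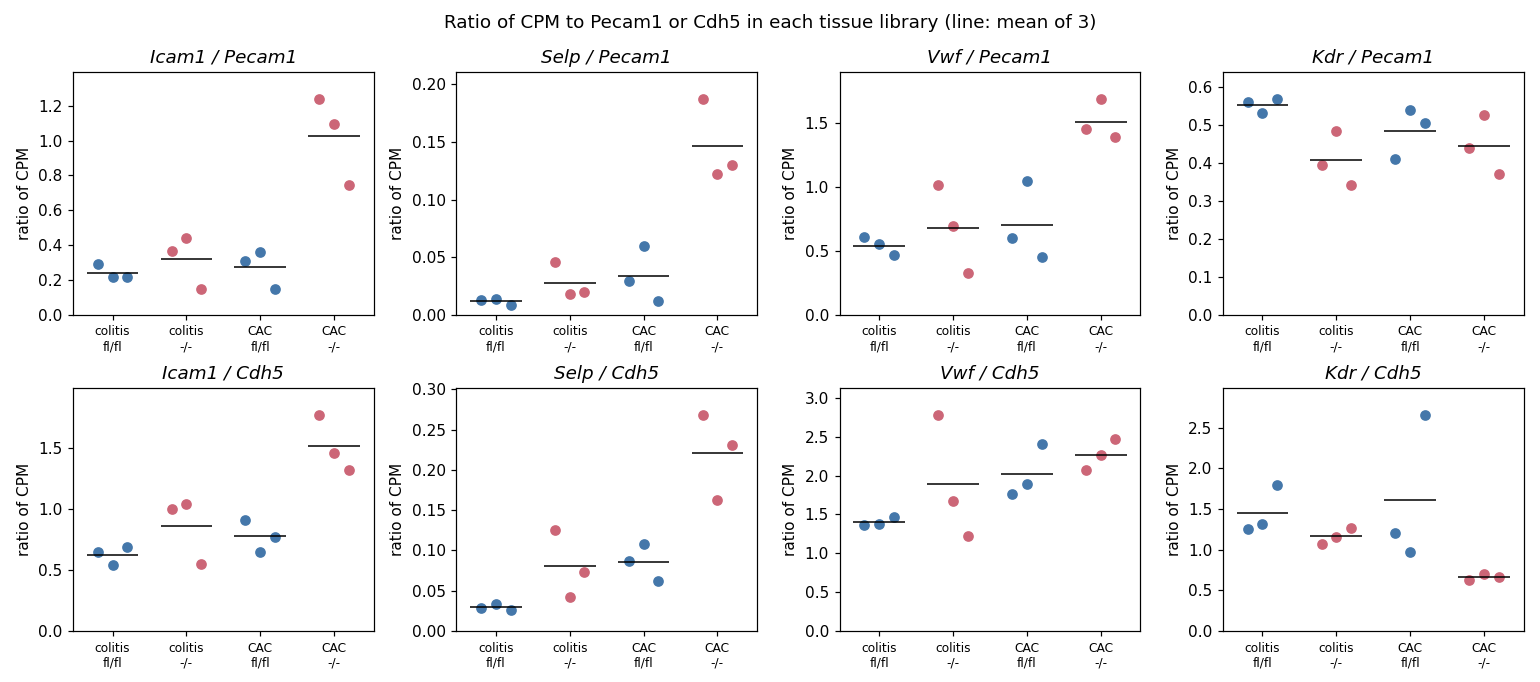
Ratio of the CPM of Icam1, Selp, Vwf and Kdr to that of Pecam1 (upper row) or Cdh5 (lower row) in each of the 12 tissue libraries, with the group mean as a line, fl/fl in blue and RNF138-/- in red. Icam1 reaches 0.742 to 1.24 of Pecam1 in CAC RNF138-/- libraries against 0.146 to 0.359 in CAC fl/fl libraries.

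Genes of the same pathway were read from lists. Of the 20 other endothelial genes, 20 were tested in CAC and 0 were called (edgeR), with 9 above and 11 below 0 and a median log2 fold change of -0.03 beside 0.01 for all genes. Of its abundant genes, Ecscr, an endothelial cell surface protein, was not called (75.5 against 32.0 CPM, log2 fold change 1.21, adjusted p = 0.0974), nor was Mcam (39.3 against 65.4 CPM, -0.79, adjusted p = 0.0979). Of 8 other vascular adhesion genes tested, 2 were called lower, Chst4 (9.92 against 50.3 CPM, log2 fold change -2.39, SE 0.25, adjusted p = 0.0193) and the junctional molecule Jam3 (1.72 against 5.79 CPM, -1.79, adjusted p = 0.0426). Chst4 is a sulfotransferase that makes L-selectin ligands of high endothelial venules, and which cells carried it here was not tested. Glycam1 (0.377 against 0.848 CPM) and Fut7 (0.0504 against 0.136 CPM) of the same list were low. Of 6 cytokine genes tested that induce adhesion molecules, Il1b was called higher (44.3 against 10.4 CPM, 2.05, SE 0.36, adjusted p = 0.0343). None of 10 leukocyte counter-receptors was called in CAC, and the most abundant, the integrin chain Itgb1, was level (451.3 against 444.4 CPM, log2 fold change -0.02), while Cd44, a ligand of SELE on leukocytes and tumor cells, had 199.8 against 111.2 CPM (0.81, adjusted p = 0.105).

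Markers of other cell types moved with this comparison, and their part in the members' differences was not tested. All 6 smooth muscle genes were called lower in CAC RNF138-/- libraries, among them Myh11 (41.8 against 1310 CPM, log2 fold change -5.04, adjusted p = 0.0193) and Acta2 (87.3 against 865 CPM, -3.37, adjusted p = 0.0225). Of 6 pericyte genes 1 was called lower, Abcc9 (14.3 against 31.9 CPM, -1.20, adjusted p = 0.0259), and the list summed to 125 to 183 CPM against 215.3 to 971.7 CPM. The follicular stroma and lymphoid chemokine list had 2 of 5 tested genes called lower, Cxcr5 (0.251 against 3.13 CPM, adjusted p = 0.0290) and Cr2 (0.440 against 5.88 CPM, adjusted p = 0.0471). Intestinal epithelial genes, a possible source of Icam1, summed to 5366 to 6171 against 6647 to 13200 CPM, without overlap, and Cdx2, an intestinal transcription factor, was called lower (8.43 against 123.6 CPM, log2 fold change -3.95, adjusted p = 0.0446). Fl/fl library 3, the lowest for 6 of the members, was the highest of the 3 fl/fl libraries in the sums of epithelial (13200 CPM), smooth muscle (8194 CPM) and pericyte (971.7 CPM) genes. Adipocyte genes were called lower in 3 of 4 tested, and Adipoq had 0 counts in the 3 RNF138-/- libraries. Among the leukocyte genes called lower were the B cell gene Cd79a and the pan-leukocyte gene Cd52, with 3 genes of the list above 0 and 7 below, and the neutrophil gene S100a8 was at 84.8 against 23.4 CPM without overlap (log2 fold change 1.82, adjusted p = 0.0549, named after its values were seen), while the list's sum overlapped (209.8 to 339.5 against 208.3 to 399.1 CPM). Other sums stood higher in RNF138-/- libraries without overlap. The lymphatic endothelial list summed to 451.7 to 582.8 against 63.1 to 311.9 CPM, most of it Prox1 (481.8 against 136.0 CPM, adjusted p = 0.138), with 0 of 6 genes called (edgeR, 2 at an unadjusted p under 0.05). Of its genes 4 lay below 0, Lyve1, Flt4, Ccl21a and Reln, and the median log2 fold change of the list was -0.38. The vascular growth factors summed to 142.2 to 157.0 against 88.1 to 119.1 CPM, with 0 of 8 called (edgeR, 1 at an unadjusted p under 0.05), and the cytokines to 46.9 to 102.0 against 21.6 to 36.3 CPM. The other vascular adhesion genes were lower without overlap in their sum (360.6 to 386.3 against 437.0 to 573.5 CPM). Most of it was F11r (270.6 against 318.6 CPM, named after its values were seen), and 7 of the 8 genes tested lay below 0 and 1 above. The platelet list, given because platelets also carry Selp, Vwf and Pecam1, had 0 of 6 tested genes called and sums of 40.0 to 45.8 against 45.1 to 54.7 CPM.

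In colitis the genotypes were compared in the same way. Selp was the one adhesion gene tested whose groups did not overlap upward, and Kdr the one endothelial gene whose groups did not overlap downward. Of the 9 members tested, 0 were called by edgeR and 0 by DESeq2, and 1, Selp, had an unadjusted p under 0.05. Over all 16623 genes 0.0180% were called higher and 0.0722% lower, and 8.04% (higher) and 9.44% (lower) did not overlap. A fit with the replicate number as a block raised the calls over all genes from 15 to 89 and called none of the members.

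Selp had 12, 14 and 7 counts (0.684, 0.795 and 0.439 CPM) in colitis fl/fl and 40, 16 and 33 counts (2.40, 0.967 and 1.67 CPM) in colitis RNF138-/- libraries. The nearest libraries were 0.795 and 0.967 CPM. The log2 fold change was 1.40 (SE 0.46, edgeR, adjusted p = 0.342). Sele passed no count filter in colitis and was not tested. It had 0, 0 and 1 counts in fl/fl and 15, 6 and 5 counts in RNF138-/- libraries, and the rate ratio of the pooled counts, 26 against 1, was 25.0 with a 95% counting interval of 4.11 to 1027. Sele was thus detected in all 3 RNF138-/- libraries at a low level, and a count of 0 allows up to 3 counts in the fl/fl libraries.

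Icam1 in colitis was at 15.2, 12.7 and 11.5 against 19.1, 23.9 and 12.5 CPM (log2 fold change 0.51, SE 0.26, edgeR, adjusted p = 0.560), with RNF138-/- library 3 inside the fl/fl range. Madcam1 was at 3.25, 5.05 and 2.32 against 8.51, 5.44 and 3.89 CPM (0.76, SE 0.39, adjusted p = 0.564) and Vwf at 31.9, 32.1 and 24.3 against 53.1, 38.1 and 27.8 CPM (0.45, SE 0.25, adjusted p = 0.605). For each of the 3 genes RNF138-/- libraries 1 and 2 were above all fl/fl libraries and library 3 was not. By replicate number the RNF138-/- library was the higher one in 3 of 3, although the numbers may not pair the libraries. Kdr had 29.4, 30.8 and 29.7 against 20.6, 26.3 and 28.9 CPM (-0.22, SE 0.20, adjusted p = 0.768), without overlap, library 1 being the lowest and library 3 near the fl/fl range. Pecam1 had 52.5, 58.2 and 52.3 against 52.1, 54.5 and 84.6 CPM, Cdh5 23.4, 23.4 and 16.6 against 19.1, 22.9 and 22.7 CPM, and Vcam1 24.4, 14.8 and 32.8 against 18.8, 27.8 and 22.2 CPM, all with overlap. Plvap differed between replicates in both genotypes, with 153.1, 137.0 and 68.6 CPM in fl/fl and 155.6, 152.2 and 57.0 CPM in RNF138-/- libraries, so that library 3 was far below libraries 1 and 2 in each genotype. None of the 20 other endothelial genes, all tested, was called (edgeR), and 17 of them lay above 0, with a median log2 fold change of 0.31 beside 0.02 for all genes. The leukocyte list summed to 313.0 to 345.8 CPM in RNF138-/- and to 236.7 to 271.7 CPM in fl/fl libraries, and the cytokine list to 19.1 to 44.8 against 9.16 to 11.8 CPM, without a called gene in either list. The platelet list summed to 59.8 to 69.2 against 43.1 to 52.4 CPM, also without overlap and with 0 of 4 tested genes called (edgeR, 2 at an unadjusted p under 0.05), where Itgb3 made up most of the sum (39.1 against 26.2 CPM) and the platelet chemokine Pf4 had 10.7 against 14.3 CPM (both named after their values were seen). Pericyte genes summed to 596.7 to 833.5 against 360.8 to 488.5 CPM without overlap, most of it Rgs5 (580.7 against 278.3 CPM, named after its values were seen), with 0 of 6 called (edgeR, 2 at an unadjusted p under 0.05). The sum of the 20 other endothelial genes was higher (406.0 to 426.7 against 315.4 to 386.5 CPM) and that of the other vascular adhesion genes lower (379.1 to 426.8 against 446.8 to 494.6 CPM), each without overlap. The most abundant of the latter were F11r (207.7 against 228.9 CPM) and Chst4 (64.5 against 126 CPM), both named after their values were seen. Of the 8 tested genes of that list 5 lay above 0 and 3 below. The follicular stroma and lymphoid chemokine list summed to 23.2 to 54.1 against 11.4 to 19.3 CPM, with 0 of 5 tested genes called (edgeR, 3 at an unadjusted p under 0.05). The part of these lists in the members' values, Selp among them, was not tested.

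**Figure D5:**
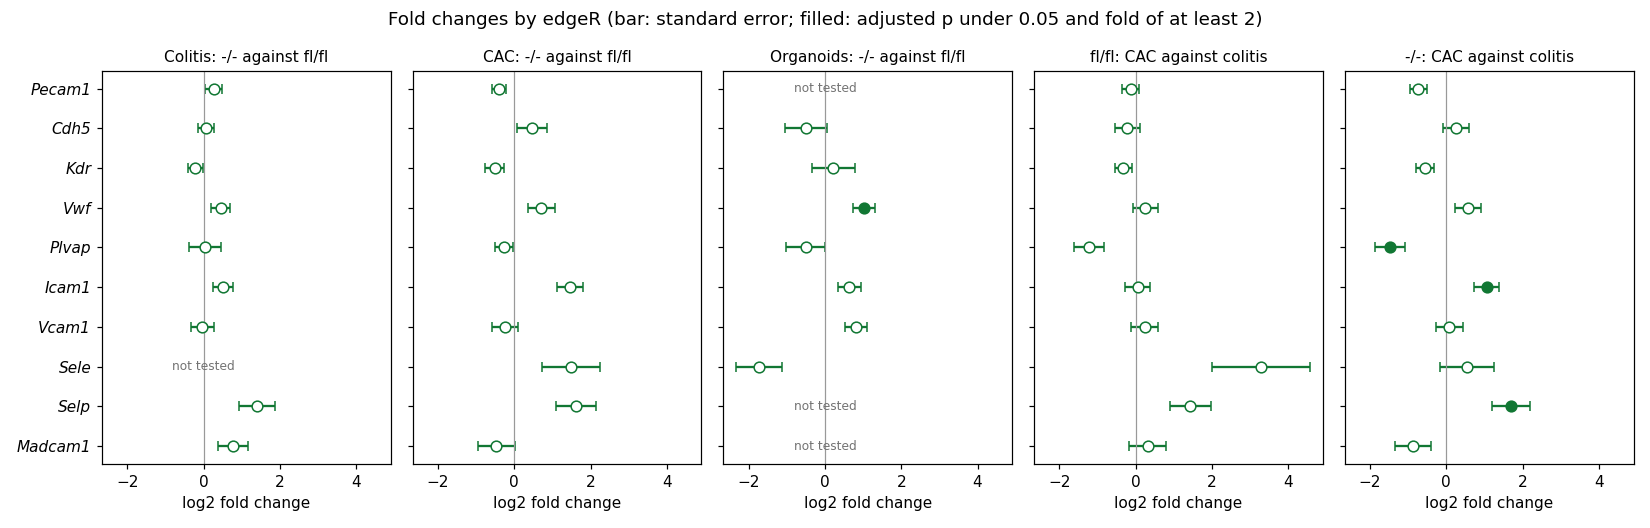
Log2 fold changes (edgeR, with standard error) of the 10 genes in 5 comparisons, filled where the call was made. The filled points are Vwf in organoids (1.03) and Plvap (-1.48), Icam1 (1.06) and Selp (1.69) in CAC against colitis within RNF138-/-.

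In organoids Vwf was called higher in RNF138-/- libraries, and Icam1, Vcam1 and Sele, the 3 members at high level there, did not pass both thresholds. Of the 7 members tested (Pecam1, Selp and Madcam1 had too few counts), 1 was called higher and 0 lower by edgeR, and 3 had an unadjusted p under 0.05. Over all 15294 genes 7.94% were called higher and 7.04% lower, and 28.0% (higher) and 25.2% (lower) did not overlap, against 2 and 0 of the 7 members. Vwf had 2.00, 1.96 and 3.01 CPM in fl/fl and 6.13, 3.96 and 4.68 CPM in RNF138-/- organoids, without overlap, a log2 fold change 1.03 (SE 0.29, edgeR, adjusted p = 0.0273). The call was lost without TMM factors (0.82, adjusted p = 0.0672) and with the replicate block (0.0548). It was also lost without fl/fl library 2 (adjusted p = 0.0767), RNF138-/- library 1 (0.108) or RNF138-/- library 3 (0.0726). Without fl/fl library 1 the adjusted p stayed below 0.05 but the difference was below 2-fold, so Vwf was not called. The adjusted p ranged from 0.00655 to 0.108 over all 11 alternatives, 6 of which kept it below 0.05.

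Vcam1 had 171.8, 92.2 and 68.9 CPM in fl/fl and 187.6, 231.8 and 184.5 CPM in RNF138-/- organoids. The groups did not overlap, with fl/fl library 1 near the RNF138-/- libraries. The log2 fold change was 0.82 (SE 0.30, edgeR, adjusted p = 0.0619), which is below 2-fold, and without fl/fl library 1 it was 1.28 (adjusted p = 0.000795, the lowest of its alternatives, up to 0.176). Icam1 had 189.0, 74.5 and 137.0 against 158.2, 263.1 and 222.7 CPM (0.64, SE 0.31, adjusted p = 0.135), with fl/fl library 1 inside the RNF138-/- range. Sele went the other way on the mean, with 14.8, 4.94 and 2.61 CPM (259, 63 and 39 counts) in fl/fl and 1.67, 2.96 and 2.31 CPM (24, 56 and 31 counts) in RNF138-/- organoids, and the groups overlapped. Its log2 fold change was -1.73 (SE 0.59, edgeR, adjusted p = 0.0518), and DESeq2 called it lower (adjusted p = 0.00907, within 0.000784 to 0.157 over the alternatives). The size rested on fl/fl library 1, which held 259 of the counts, and without it the log2 fold change was -0.73 (adjusted p = 0.157). The sign was opposite to that of the differences in both tissues, and the difference between organoids and tissue was not tested.

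Cell type markers also moved with genotype in organoids. Of 6 fibroblast genes 5 were called higher in RNF138-/- organoids, for example Dcn (3468 against 825.5 CPM, log2 fold change 2.03, adjusted p = 0.00156), and the list summed to 40110 to 49520 CPM against 8935 to 23060 CPM, with fl/fl library 1, the one high in Vcam1, Icam1 and Sele, at 23060 CPM. Of the platelet list 2 of 6 tested genes were called higher, Pf4 (6.13 against 0.397 CPM, log2 fold change 3.87, adjusted p = 0.00141) and the integrin chain Itgb3 (105.2 against 34.9 CPM, 1.55, adjusted p = 0.00449), and the list summed to 118.2 to 146.4 against 43.9 to 74.6 CPM. Pericyte genes were called higher in 4 of 6 and intestinal epithelial genes lower in 2 of 7. Smooth muscle genes were called higher in 2 of 6 and summed to 1579 to 1766 against 262.9 to 1349 CPM. The leukocyte list summed to 16.8 to 22.4 against 5.57 to 10.7 CPM. Among the 14 other endothelial genes tested, 5 were called higher, such as Erg (10.6 against 1.76 CPM, 2.53, adjusted p = 0.000726), Ptprb (35.9 against 6.08 CPM) and Flt1 (42.1 against 7.10 CPM), and 3 lower, Cldn5 (1.21 against 9.31 CPM) and, named after their values were seen, Sox18 and Egfl7, in libraries in which Pecam1 had at most 9 counts. The growth factor Vegfa, the ligand of KDR, was called higher (1315 against 595.4 CPM, 1.10, adjusted p = 0.00525). The part of these cell types, and of sex, in the values of Vwf, Vcam1, Icam1 and Sele was not tested.

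CAC was then compared with colitis within each genotype, in 1 fit of the 12 tissue libraries. In RNF138-/- libraries Icam1 and Selp were called higher and Plvap lower in CAC. The models were handled as separate experiments, and model and any batch of the models cannot be told apart. Of the 10 members, 2 were called higher and 1 lower, against 17.1% and 19.6% of the 18843 genes tested, and 2 and 3 did not overlap, against 32.2% and 27.8%. So large a share of all genes differed between the models that these counts do not set the members apart. Plvap went from 155.6, 152.2 and 57.0 CPM to 34.4, 53.4 and 42.7 CPM, with every CAC library below every colitis library (log2 fold change -1.48, SE 0.39, edgeR, adjusted p = 0.00782). Icam1 rose from 19.1, 23.9 and 12.5 to 35.5, 46.6 and 33.0 CPM (1.06, SE 0.32, adjusted p = 0.0171), and the call was lost without colitis RNF138-/- library 3 (adjusted p = 0.0641) or CAC RNF138-/- library 2 (0.0664). Selp rose from 2.40, 0.967 and 1.67 to 5.37, 5.18 and 5.79 CPM (1.69, SE 0.50, adjusted p = 0.0141), a call lost without colitis RNF138-/- library 2 (0.0636). Pecam1 passed on its adjusted p below 2-fold, with 52.1, 54.5 and 84.6 against 28.6, 42.5 and 44.5 CPM (-0.73, SE 0.22, adjusted p = 0.0154, 0.0612 without CAC RNF138-/- library 1, and 0.172 without TMM factors, which moved the median of all genes by 0.31). Without TMM factors Vwf had an adjusted p of 0.0498 (log2 fold change 0.90) in place of 0.172 (0.56), below 2-fold in both. Kdr was just short of the threshold (-0.56, edgeR, adjusted p = 0.0551). Its adjusted p was below 0.05 in 6 of 19 alternatives, 0.0341 with DESeq2, and the difference was below 2-fold in each. Madcam1 was lower in every CAC library on the CPM scale, at 3.08, 3.64 and 2.96 against 8.51, 5.44 and 3.89 CPM (-0.87, SE 0.48, adjusted p = 0.144). On the TPM scale its groups overlapped (7.96 to 10.3 against 7.41 to 13.6 TPM). Smooth muscle genes were called lower in 6 of 6 in this comparison too. Pericyte genes were called lower in 4 of 6, adipocyte genes in 5 of 5 tested and intestinal epithelial genes in 3 of 7. The follicular stroma and lymphoid chemokine list had 3 of 5 tested genes called lower. The part of these lists was not tested.

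In fl/fl libraries none of the 10 members was called between CAC and colitis (edgeR), 3 had an unadjusted p under 0.05, and DESeq2 called 1, Plvap. Over the 18843 genes 8.41% were called higher and 3.04% lower, and 17.8% and 16.9% did not overlap, against 0 and 3 members. Plvap was again lower without overlap, from 153.1, 137.0 and 68.6 CPM in colitis to 38.6, 64.7 and 48.7 CPM in CAC (log2 fold change -1.22, SE 0.38, adjusted p = 0.0529, range 0.0132 to 0.197 across alternatives). On the CPM scale both genotypes thus had lower Plvap in each CAC library than in any colitis library of the same genotype. Pecam1 (-0.13) and Kdr (-0.32) were lower without overlap by small amounts in fl/fl. On the TPM scale the Plvap groups overlapped in both genotypes. The highest CAC library had 102.9 (fl/fl) and 109.4 TPM (RNF138-/-), and the lowest colitis library 94.0 and 78.5 TPM. Icam1 was level, with means of 13.5 ± 5.99 CPM in CAC and 13.1 ± 1.91 in colitis (SD, n = 3, log2 fold change 0.05). Selp (1.43, SE 0.54, adjusted p = 0.0940) and Sele (3.27, SE 1.29, adjusted p = 0.107, on 13 against 1 counts) overlapped, and both depended on single libraries. Without CAC fl/fl library 3 both passed (adjusted p = 0.0210 and 0.0468), and without CAC fl/fl library 2 the log2 fold change was 0.68 for Selp (adjusted p = 0.416) and 1.59 for Sele (adjusted p = 0.526). Without colitis fl/fl library 3, which held the 1 count, Sele was at 0 in the colitis fl/fl libraries left, and no fold is given. Smooth muscle genes were called in 0 of 6 here, at 2547 to 8194 CPM in CAC and 6585 to 7938 CPM in colitis, where CAC libraries 1 and 2 (2547 and 3657 CPM) lay below all colitis fl/fl libraries, and their part in the values of Plvap was not tested.

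Across both genotypes the neighbours of these genes shifted with the model in the same fit. Ecscr was called higher in CAC in both genotypes (32.0 against 10.1 CPM in fl/fl, adjusted p = 0.00767, and 75.5 against 9.40 CPM in RNF138-/-, adjusted p = 9.85e-05), and so were Il1a, Il1b and Apln. Ecscr also had 56.7 CPM in fl/fl and 33.7 CPM in RNF138-/- organoids, and which cells carried it was not tested. Of 6 lymphatic endothelial genes, the receptor Lyve1 was called lower in both genotypes (13.0 against 31.5 CPM and 9.87 against 36.9 CPM) and the transcription factor Prox1, which intestinal epithelial tumors can also express, higher in both (136.0 against 4.11 CPM, log2 fold change 5.05, adjusted p = 0.00135, and 481.8 against 6.89 CPM, 6.11, adjusted p = 0.000143). In RNF138-/- libraries Flt4, Ccl21a and Reln of that list were called lower as well. In RNF138-/- libraries 6 of the 20 other endothelial genes were called lower, with Cd34 (15.7 against 38.2 CPM, adjusted p = 0.00085), Mcam (39.3 against 85.3 CPM, 0.00178) and Ackr1, the chemokine receptor of venules (1.92 against 6.12 CPM, 0.00379), at the lowest adjusted p, and 2 higher, Ecscr and Sox17. The integrin chain Itgb7, a chain of the receptor of MADCAM1, was called lower there (6.55 against 19.6 CPM, adjusted p = 0.00125), and Itgam, a chain of a receptor of ICAM1, higher (39.4 against 16.5 CPM, 0.0150).

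Whether the genotype difference itself differed between CAC and colitis was tested as an interaction in the same fit. None of the 10 members was called (edgeR and DESeq2), against 8.34% of the 18843 genes, and Icam1 alone had an unadjusted p under 0.05. The genotype difference of Icam1 was larger in CAC by 1.00 on the log2 scale (SE 0.46, adjusted p = 0.182, range 0.0630 to 0.351 across alternatives), and that of Selp by 0.26 (SE 0.74, adjusted p = 0.855). A larger difference in CAC was therefore not shown for either gene at this number of libraries. Sele (-2.73, SE 1.49) and Madcam1 (-1.19, SE 0.68) had the largest negative estimates, with adjusted p of 0.263 and 0.284, and without CAC fl/fl library 2 that of Sele was -1.04.

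Over the 12 tissue libraries, which mix model and genotype, the members varied together in part. The Pearson r of log2(CPM + 1) was 0.86 for Vwf with Icam1, 0.84 for Vwf with Selp and 0.85 for Icam1 with Selp, and 0.75, 0.75 and 0.53 for the deviations from the group means. Pecam1 and Kdr had an r of 0.78 (0.70 within groups), and Cdh5 with Pecam1 an r of 0.07 (0.38 within groups). Cdh5 went with Icam1 (0.70, 0.77 within groups) more than with Pecam1. These are descriptions over 12 libraries that share depth and tissue content. Of all genes with a mean of at least 5 CPM, the 3 most like Plvap by r were Ski (0.98), Hspg2 (0.98), which encodes the basement membrane proteoglycan perlecan, and Ripor1 (0.98). Those most like Icam1 were Zfp703 (0.97), Mid1 (0.97) and Kcnq1 (0.95), and those most like Selp were Ninl (0.97), Sema4c (0.95) and Arv1 (0.95). Madcam1 was most like Dok3 (0.93), Irf5 (0.91) and Nrros (0.88), and Vcam1 like Tmem176a (0.83), Nckap1l (0.82) and Lama2 (0.79). Those most like Pecam1 were Galnt15 (0.94), Nhsl2 (0.92) and Ecm2 (0.91), those most like Cdh5 were Katnal1 (0.97), Phf21a (0.92) and Adcy3 (0.90), those most like Kdr were Zxdc (0.94), Far2 (0.93) and Igdcc4 (0.93), and those most like Vwf were Zfp358 (0.95), Rbfox2 (0.94) and Mical3 (0.92). Sele, at a mean below 1 CPM in tissue, was left out.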

How the data were processed

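RNA from colorectal tissue and CAC organoids was sequenced by the authors (TruSeq libraries, 18 in all). The authors deposited whole-number read counts per gene without normalization. A deposited table of the authors' own fold changes and p-values was not used. The submitters' processing notes name STAR 2.6.1d, HTSeq 0.11.2, DESeq2 and mm10, while the paper names Cufflinks, so the exact counting steps and any strand setting are not given in the sources used here. Of 36757 gene identifiers, 36700 matched GENCODE M21 of the same build.

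Each model was fitted with edgeR 4.0.16 in R 4.3.3 (filterByExpr, TMM, glmQLFit, glmQLFTest, Benjamini-Hochberg), and CAC was compared with colitis in a fit of the 12 tissue libraries. Printed CPM use TMM factors over all 18 libraries, and TPM use union exon lengths. Fold changes come from each fit. A gene was called where the adjusted p was below 0.05 and the difference at least 2-fold, the study's thresholds. Ratios of CPM were tested by an exact permutation test. DESeq2 1.42.0, other scalings, no filter, a covariate of Y-linked expression, a replicate block and leaving out each library served as alternatives. The fits were tested on simulated data.

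Depth was 11514716 to 24390082 counts per library, and intervals and floors of 3 counts cover counting error only. Counts of replicates differed with a chi-square of 7.44 to 143.5 per degree of freedom over genes with at least 10 counts in a pair, so no library was a copy of another. Deviations of libraries with the same number in the label correlated in colitis (r = 0.28, 0.13 and 0.56), and the numbers were taken to pair the samples there. Libraries 1 and 2 correlated best with each other, so this pairing is not settled.

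The 10 members and the gene lists were chosen with earlier results of these data known. Named beside the members are up to 4 called genes per list and comparison by lowest adjusted p, the most abundant genes of the endothelial and counter-receptor lists, and the 3 genes most alike each member with a mean of at least 1 CPM in tissue. A result of 1 gene of the leukocyte list is not reported here.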

Additional observations from a re-analysis of the deposited data

How the results depend on the processing

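Of 863 refitted log2 fold changes of members, 784 kept their sign and their side of the adjusted p of 0.05, 30 newly passed it, 10 no longer did and 39 turned sign. Differences near the threshold, such as Icam1 and Selp in CAC and Sele in organoids, passed under some settings and not under others. The count of members called stayed at 0 in colitis and in the interaction under each setting run (edgeR, with 1 member at an unadjusted p under 0.05 in each, and DESeq2). The settings with no TMM factors, no filter and the Y-linked covariate for the interaction, the ratio to Cdh5 and the ratios with a library left out were chosen after seeing the data. For the settings that changed a count or a sign, the cause was not tested.

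Without a filter on low counts the members called in CAC came to 1 higher (Icam1), in organoids to 1 lower (Sele) and in CAC against colitis within fl/fl to 1 lower (Plvap), and all genes called to 354 in colitis (from 15) and 1641 in CAC (from 954). DESeq2 called 2 members higher in CAC, 1 lower in organoids and 1 lower in CAC against colitis within fl/fl, and over all genes tested 343 for colitis, 2463 for CAC and 2506 for the interaction (from 1571). Without TMM factors 0 members were called higher and 1 lower in organoids (edgeR, Vwf and Sele, where an unadjusted p under 0.05 at 2-fold was met by 0 and 1), and 29 genes were called in colitis. The share of calls that were higher then went from 53.0% to 36.1% in organoids and from 46.6% to 61.6% in CAC against colitis within RNF138-/-, and the median of all genes moved by -0.20 and 0.31 on the log2 scale. Plvap came to 0.0082 in CAC, -0.011 in colitis and 0.021 in the interaction, and Vcam1 to 0.051 in the interaction. With all 18 libraries in the fit 1 member, Plvap, was called lower between CAC and colitis within fl/fl.

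The replicate block called 89 genes in colitis and changed no call of a member there, while Plvap came to -0.0033 and Vcam1 to 0.0070. The numbers were taken to pair the samples in colitis, although numbers 1 and 2 correlated best with each other. In CAC and organoids the numbers were not taken to pair the samples (r of deviations 0.025, 0.23 and 0.081, and -0.25, -0.10 and 0.095), although each CAC number correlated best with itself. There the block called 1 member higher in CAC (Icam1) and 0 in organoids (edgeR, 1 without the block, and Vwf at an adjusted p of 0.0548), and 1 lower between CAC and colitis within fl/fl (Plvap), where Icam1 came to -0.032. With the Y-linked covariate 185 genes were called in colitis and 0 in CAC (edgeR, with 1792 at an unadjusted p under 0.05 and 2-fold), Plvap came to -0.11 in colitis, Vcam1 to 0.13 in CAC and 0.087 in the interaction, and Kdr to 0.033 in the interaction. The covariate was not run in organoids, where it coincides with genotype. Per unit of Cdh5 in place of Pecam1, the log2 differences between genotypes in CAC were -1.14 for Kdr, 0.18 for Vwf, -0.85 for Plvap, 0.97 for Icam1, -0.82 for Vcam1, 1.37 for Selp and -0.82 for Madcam1.

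With 1 library left out, members called higher numbered 0 to 1 in CAC (1 without fl/fl library 3), 0 to 1 in organoids (0 without fl/fl library 2 or RNF138-/- libraries 1 or 3, and Vcam1 in place of Vwf without fl/fl library 1), 0 to 2 in CAC against colitis within fl/fl (2 without CAC fl/fl library 3) and 1 to 2 within RNF138-/- (1 without colitis libraries 2 or 3 or CAC library 2). Members called lower numbered 0 to 1 in organoids (1 without fl/fl library 3) and 0 to 1 in CAC against colitis within fl/fl (1 without colitis library 3 of either genotype). Over all genes the calls ranged from 0 to 147 in colitis (edgeR, 0 without fl/fl library 3, where 729 genes had an unadjusted p under 0.05 and 2-fold), 0 to 1136 in CAC (edgeR, 0 without RNF138-/- library 1 or 2, with 3044 and 2475 by the unadjusted p), 1515 to 3130 in organoids, 1105 to 2751 in CAC against colitis within fl/fl and 596 to 2139 in the interaction. Signs turned for Vcam1 (-0.47 to 0.031) and Madcam1 (-0.83 to 0.078) in CAC, for Pecam1 (-0.024 to 0.40), Cdh5 (-0.091 to 0.14), Plvap (-0.235 to 0.37) and Vcam1 (-0.31 to 0.25) in colitis, and for Kdr (-0.15 to 1.00) in organoids. They also turned for Cdh5 (-0.71 to 0.10), Vwf (-0.20 to 0.51), Icam1 (-0.23 to 0.36), Vcam1 (-0.053 to 0.53) and Madcam1 (-0.24 to 0.70) in CAC against colitis within fl/fl, for Vcam1 (-0.14 to 0.31) within RNF138-/-, and for Vcam1 (-0.49 to 0.13) and Selp (-0.17 to 1.01) in the interaction.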
